A study of Homo sapiens with 4 samples.

Results

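The IGF binding proteins and the first signalling components behind the IGF receptor were followed as 10 genes: IGFBP1 to IGFBP7, the receptor gene IGF1R, and the adaptor genes IRS1 and IRS2. They were taken by symbol from a deposited table of A549 messenger RNA, which held 19732 gene symbols, and all 10 were listed there under 29 transcripts. A549 is an established human lung adenocarcinoma line. The group tested was A549 with knockdown of RBM4, whose protein binds RNA and acts in splicing and in translation, and it was set against A549 control cells, with 1 library per group. The labels title the knockdown sample as a short-hairpin sample and do not say whether the cells were a pool or 1 clone. Samples of the same design from H1299, also a human lung cancer line, were not analysed here. Which of the A549 columns was the knockdown was read from their names, and every direction below rests on that reading.

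Insulin-like growth factors circulate and act locally while bound to the IGF binding proteins, which hold the ligands away from the receptor or deliver them to it. Proteases release the ligand by cutting the binding proteins, and the freed ligand activates IGF1R, a receptor tyrosine kinase. The activated receptor phosphorylates IRS1 and IRS2, which dock PI3-kinase and so feed the AKT and mTOR arm. Several binding proteins, IGFBP3 and IGFBP7 among them, are also known as secreted products of senescent cells, and the title of the series ties RBM4 to senescence.

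The binding proteins are recognised by a cysteine-rich amino-terminal domain that contacts the growth factor. It holds a short motif read here as cysteine, glycine, cysteine, cysteine, any 2 residues and cysteine. The coding bases of that motif and of the residue before it were read from GENCODE release 29 transcripts (GRCh38, the assembly also called hg38), because some transcripts of IGFBP2 and IGFBP3 lack them. Each is written 5′ to 3′ on the coding strand, with cysteine codons in capitals.
IGFBP1, chr7:45888818-45888841, plus strand: ggcTGCggcTGTTGCccgatgTGC
IGFBP2, chr2:216633770-216633793, plus strand: ggcTGCggcTGCTGCtcggtgTGC
IGFBP3, chr7:45920922-45920945, minus strand: ggcTGCggcTGCTGCctgacgTGC
IGFBP4, chr17:40443889-40443912, plus strand: ggcTGCggcTGTTGCgccactTGC
IGFBP5, chr2:216694599-216694622, minus strand: ggcTGCggcTGCTGCatgaccTGC
IGFBP7, chr4:57110163-57110186, minus strand: gcgTGCggcTGCTGCcctatgTGC
Of the 7 binding proteins 6 held the motif, and the main transcript of IGFBP6 had no match to it. Only coding sequence was searched.

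Values are FPKM, fragments of a transcript scaled for its length and for the size of the library, as the authors deposited them and summed here over the transcripts of each symbol. The depth of the libraries is unknown, since the table gives no counts. Each difference is log2(FPKM + 1) of the knockdown library minus that of the control library. On this scale differences of low genes come out too small. A gene is counted as past 2-fold at a difference of 1 or more in size. No test could be made with 1 library per group. RBM4 had 30.6 FPKM in the knockdown library, against 59.4 FPKM in the control library, or 51.5% of the control. Its difference of -0.93 fell short of 2-fold, and 2.76% of genes at 1 FPKM or more had a lower difference. The RBM4 values are sums over 11 listed transcripts, whose separate values are not given here. Total FPKM was 622366 in the knockdown and 671529 in the control library, and genes of the mitochondrial genome held 21.7% of it in the knockdown and 18.6% in the control library. Of 10 epithelial markers 9 passed the minimum of 1 FPKM used below. Of these, 6 had a difference above 0, beside 46.6% of all genes at that minimum. Among the 6, EPCAM and MUC1 were almost level, at 0.007 and 0.012, while CDH1 was at -0.21. Keratin genes were abundant and differed in both directions. KRT7 had 2446 FPKM in the knockdown and 1879.8 FPKM in the control library (0.38). KRT8 had 888 FPKM in the knockdown and 1646 FPKM in the control library (-0.89). KRT18 had 912 FPKM in the knockdown and 1853 FPKM in the control library (-1.02), the only one of these markers lower by 2-fold. KRT19 and CLDN4 were higher by 2-fold in the knockdown library, at 1.11 and 3.89. Of 9 alveolar markers 2 passed: ABCA3 had 11.9 FPKM in the knockdown and 9.69 FPKM in the control library, and AGER had 0.91 FPKM in the knockdown and 1.10 FPKM in the control library. NKX2-1, SFTPA1 and SFTPB were listed at 0 in both libraries.

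Of the 10 genes, 9 reached 1 FPKM in a library and IGFBP5 did not. IGFBP3 was the only one lower by 2-fold and IGFBP7 the only one higher by 2-fold in the knockdown library. The other binding proteins that passed, IGFBP1, IGFBP2, IGFBP4 and IGFBP6, had differences between 0.20 and 0.64. IRS1 and IRS2 were at -0.41 and -0.66, and IGF1R at -0.28. Over all 12230 genes at 1 FPKM or more, 7.21% differed by 2-fold or more, with 4.96% higher and 2.25% lower in the knockdown library. The median difference was 0.20 over the 9 genes and -0.04 over all genes, and the median size of the difference, without its sign, was 0.43 over the 9 genes and 0.31 over all genes. With the libraries rescaled to the same total without mitochondrial genes, the split over all genes was 810 higher and 176 lower, against 607 and 275 as deposited.

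**Figure D1:**
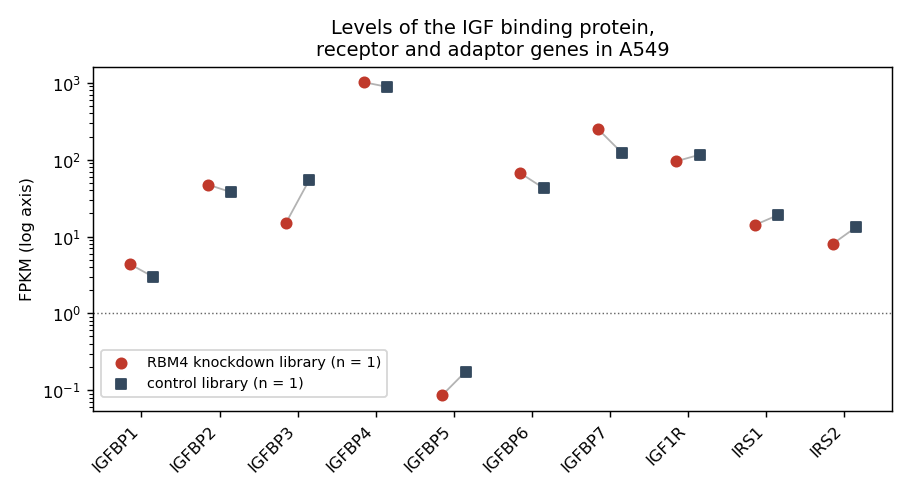
FPKM (log axis) of the 10 genes in the RBM4 knockdown library (red circles) and the control library (dark squares) of A549, 1 library each, with a dotted line at 1 FPKM. IGFBP4 is highest in both libraries, IGFBP3 stands at 15.02 FPKM in the knockdown against 54.9 FPKM in the control, and IGFBP5 lies below the line.

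IGFBP4 was by far the most abundant of the 10 genes. This binding protein is generally described as an inhibitor of IGF action and is cut by the protease PAPPA. It had 1018 FPKM in the knockdown and 884 FPKM in the control library, a difference of 0.20, and only 0.572% of genes at 1 FPKM or more had a higher level in the knockdown library, against 0.863% in the control library. IGFBP4 alone made up 72.7% of the FPKM summed over the binding proteins in the knockdown library, against 77.2% in the control library. The sum of all binding proteins was 1399 FPKM in the knockdown and 1146 FPKM in the control library. Without IGFBP4 it was 382 FPKM in the knockdown and 261 FPKM in the control library.

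IGFBP7, a secreted protein that binds IGFs only weakly and sits in the matrix around cells, came second. It had 248 FPKM in the knockdown and 123 FPKM in the control library, a difference of 1.00 that only just passed 2-fold. A higher difference was found for 4.91% of all genes. Its share of the summed binding protein FPKM was 17.7% in the knockdown and 10.7% in the control library. Nearly all of the level came from IGFBP7-201 (ENST00000295666), at 243 FPKM in the knockdown and 118 FPKM in the control library. The other listed transcript, IGFBP7-203, had 4.60 FPKM in the knockdown and 4.85 FPKM in the control library. The exons of IGFBP7 (chromosome 4, 57030773 to 57110385, minus strand) share 270 of 1930 bases with POLR2B and 94 with IGFBP7-AS1, both on the opposite strand. POLR2B, a subunit of RNA polymerase II, had 34.1 FPKM in the knockdown and 43.0 FPKM in the control library (-0.33). No strand setting is given in the sources used here, so reads from the shared bases cannot be told apart.

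IGFBP3, the main carrier of IGFs in serum and a known inhibitor of cell growth, was the member furthest from 0. It had 15.02 FPKM in the knockdown and 54.9 FPKM in the control library, 27.4% of the control and a difference of -1.80. Only 0.18% of all genes had a lower difference. Among the 10 genes ordered by level it stood in place 6 in the knockdown library and in place 4 in the control library. Its exons overlapped no other annotated gene.

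The IGFBP3 transcripts did not differ alike. IGFBP3-210 (ENST00000613132), the highest one, had 6.89 FPKM in the knockdown and 34.8 FPKM in the control library (-2.18). IGFBP3-201 (ENST00000275521), which encodes 291 residues, had 4.04 FPKM in the knockdown and 15.5 FPKM in the control library (-1.72). IGFBP3-203 (ENST00000381086) splices out most of the coding bases of the first exon and with them the cysteine motif shown above, which leaves a coding length of 582 bases against 873 for IGFBP3-201. This transcript had 3.52 FPKM in the knockdown and 3.17 FPKM in the control library (0.12). Summed over the 8 listed IGFBP3 transcripts, those that hold the motif had 11.2 FPKM in the knockdown and 50.4 FPKM in the control library (-2.08). Those without it had 3.85 FPKM in the knockdown and 4.52 FPKM in the control library (-0.19), which was 25.6% of the gene in the knockdown and 8.24% in the control library. That sum includes IGFBP3-204 and IGFBP3-205, which are annotated as incomplete at 1 end or both, so their lack of the motif is uncertain. IGFBP3-203 alone was 23.4% of the gene in the knockdown and 5.78% in the control library. The division of reads among overlapping transcripts was the authors' estimate, with no error given.

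IGFBP2 also split by the motif, without the same shift. This binding protein, common in fetal tissue and in tumours, had 47.5 FPKM in the knockdown and 37.6 FPKM in the control library (0.33). Its full transcript IGFBP2-201 had 23.3 FPKM in the knockdown and 19.0 FPKM in the control library. IGFBP2-204 starts further downstream, lacks the motif, and had 21.8 FPKM in the knockdown and 16.7 FPKM in the control library. Transcripts without the motif made up 50.9% of IGFBP2 in the knockdown and 49.4% in the control library. They include IGFBP2-203, annotated as incomplete, at 2.31 FPKM in the knockdown and 1.86 FPKM in the control library.

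**Figure D2:**
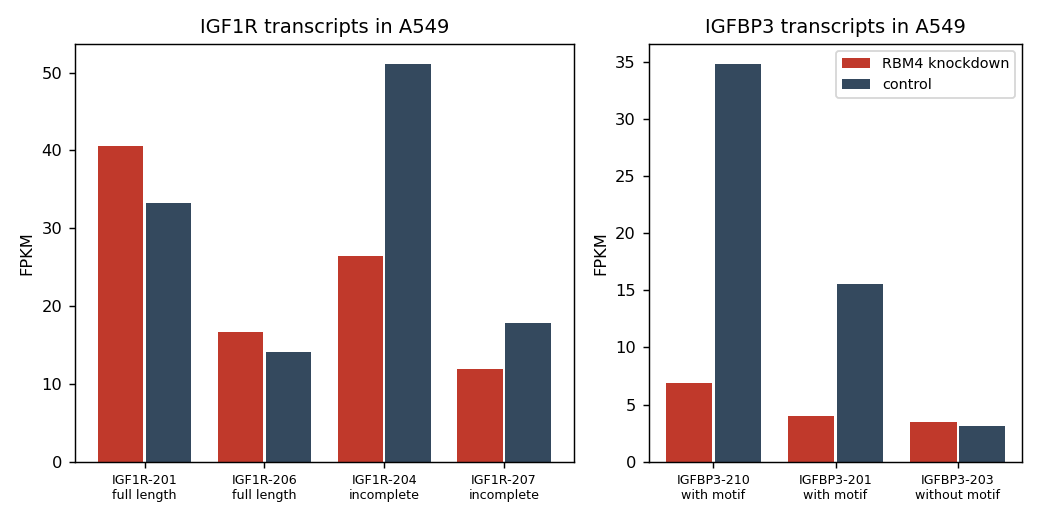
FPKM of the IGF1R and IGFBP3 transcripts at 1 FPKM or more in A549, with the RBM4 knockdown library in red left of the control library in dark blue, 1 library each. The full-length IGF1R transcripts are higher and the incomplete ones lower in the knockdown library, while IGFBP3-203, which lacks the cysteine motif, has 3.52 FPKM in the knockdown and 3.17 FPKM in the control.

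The remaining binding proteins lay closer to the bulk of genes or near 0. IGFBP6, which prefers IGF2 to IGF1, had 66.8 FPKM in the knockdown and 42.5 FPKM in the control library (0.64), and 11.1% of all genes had a higher difference. Both of its listed transcripts were higher in the knockdown library. IGFBP1, a product of liver and decidua that insulin represses, was low, at 4.38 FPKM in the knockdown and 2.99 FPKM in the control library (0.43), all of it from 1 of 3 listed transcripts. IGFBP5, which is often bound to matrix, had 0.086 FPKM in the knockdown and 0.17 FPKM in the control library, both under the minimum of 1 FPKM.

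The binding protein genes form neighbouring pairs on 2 chromosomes, and the partners did not share a level. IGFBP1 and IGFBP3 lie 18576 bases apart on chromosome 7 on opposite strands, with differences of 0.43 and -1.80. IGFBP2 and IGFBP5 lie 7668 bases apart on chromosome 2, also on opposite strands. IGFBP2 was well above the minimum in both libraries while IGFBP5 was near 0, so the differences of this pair could not be compared.

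Promoter windows from RefSeq (GRCh38.p14, 250 bases before to 50 after the start) were found for 8 of the 10 genes, all but IGFBP1 and IGFBP7. Those of IGFBP3, the member with the largest difference, and of IGFBP4, the most abundant one, are shown because they were the ones that held a TATA motif. The motif was searched as TATAAA or TATATA on both strands and is in capitals, at -30 from the start in IGFBP3 and at -29 in IGFBP4. Of all 35116 RefSeq windows of the same length 13.7% held one.
IGFBP3 promoter, chr7:45921223-45921522, minus strand: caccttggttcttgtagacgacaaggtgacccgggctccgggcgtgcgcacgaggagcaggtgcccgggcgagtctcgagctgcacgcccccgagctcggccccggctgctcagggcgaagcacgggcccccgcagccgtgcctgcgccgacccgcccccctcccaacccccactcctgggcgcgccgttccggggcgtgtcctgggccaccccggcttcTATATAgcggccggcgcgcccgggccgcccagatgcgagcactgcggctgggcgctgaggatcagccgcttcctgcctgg
IGFBP4 promoter, chr17:40443200-40443499, plus strand: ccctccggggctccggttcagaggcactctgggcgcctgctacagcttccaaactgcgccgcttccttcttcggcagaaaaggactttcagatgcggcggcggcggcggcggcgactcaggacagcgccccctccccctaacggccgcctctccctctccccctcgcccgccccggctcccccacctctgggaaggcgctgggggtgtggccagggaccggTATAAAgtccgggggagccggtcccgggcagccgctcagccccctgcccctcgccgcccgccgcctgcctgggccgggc
The forkhead motif TGTTTAC, searched on both strands, was in the window of IGFBP6 alone among these genes and in 3.42% of all windows.

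IGF1R, the receptor, was the third most abundant of the 10 genes and its direction depended on which transcripts were counted. Summed over 5 listed transcripts it had 95.6 FPKM in the knockdown and 116 FPKM in the control library (-0.28). Counted over the pair of full-length transcripts alone, it had 57.3 FPKM in the knockdown and 47.5 FPKM in the control library (0.27). IGF1R-201 (ENST00000268035), 11803 bases long, had 40.6 FPKM in the knockdown and 33.3 FPKM in the control library. The lower sum came from 2 short transcripts that are annotated as incomplete at 1 end or both. IGF1R-204, 572 bases long and contained in exons of the full-length transcripts, had 26.4 FPKM in the knockdown and 51.1 FPKM in the control library (-0.93). IGF1R-207, 1034 bases long, had 11.9 FPKM in the knockdown and 17.8 FPKM in the control library (-0.55). FPKM divides by length, so a short transcript weighs heavily in such a sum. When FPKM was multiplied by transcript length to approximate fragments, the full-length transcripts held 96.1% of IGF1R in the knockdown and 92.1% in the control library, and the difference of the gene was 0.21.

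The full-length IGF1R transcripts differ at their ends and, inside the coding sequence, by an alternative splice acceptor of 3 bases at chr15:98929558-98929560. The coding bases around the junction are shown because they separate the coding sequences of the pair, with the extra bases in capitals.
IGF1R-201, plus strand: tccaggccaaaaCAGgatatgaaaact
IGF1R-206, plus strand: tccaggccaaaagatatgaaaact
IGF1R-206 (ENST00000558762), which lacks them, had 16.7 FPKM in the knockdown and 14.2 FPKM in the control library. Its share of the full-length pair was 29.2% in the knockdown and 29.8% in the control library.

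The adaptors were lower in the knockdown library by less than 2-fold. IRS1 had 14.1 FPKM in the knockdown and 19.0 FPKM in the control library (-0.41), and 18.8% of all genes had a lower difference. IRS2 had 8.02 FPKM in the knockdown and 13.3 FPKM in the control library (-0.66), and 7.32% of all genes had a lower difference. Each was listed as 1 transcript, so neither depends on how transcripts were summed. Both proteins recruit PI3-kinase through phosphorylated tyrosines followed by any 2 residues and a methionine, a stretch that the coding sequence of IRS1 held 9 times and that of IRS2 8 times. IRS2 exons share 115 bases with a non-coding gene on the opposite strand.

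**Figure D3:**
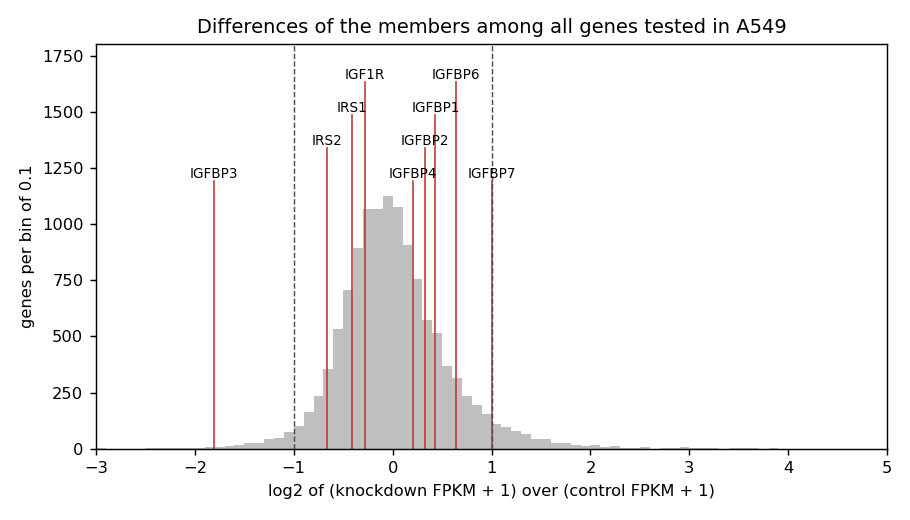
Histogram of the log2 difference of all 12230 genes tested in A549 (grey, genes per bin of 0.1, values beyond the axis placed in the end bins), with red lines at 9 of the 10 genes and dashed lines at 2-fold. IGFBP3 at -1.80 lies outside the bulk, IGFBP7 sits on the 2-fold line, and the other 7 lie within it.

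The other genes of the pathway were read from lists that leave out the 10 genes. The lists were chosen with earlier results of these data known, so their counts are a description. Of 99 listed genes, 82 passed the minimum of 1 FPKM, 19 were higher by 2-fold and none was lower by 2-fold in the knockdown library, with a median of 0.14. A gene could pass through the library in which it was high. The share past 2-fold was 23.2%, beside 7.21% of all genes.

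Of the ligands, IGF2 was higher by more than 2-fold, at 44.9 FPKM in the knockdown and 12.6 FPKM in the control library (1.75). IGF2 shares exons with the read-through gene INS-IGF2, which was listed at 0 in both libraries. IGF1 was at 0.061 FPKM in the knockdown library and listed at 0 in the control library, and INS was listed at 0 in both. The scavenger receptor gene IGF2R had 17.9 FPKM in the knockdown and 16.5 FPKM in the control library (0.11). The insulin receptor gene INSR had 4.09 FPKM in the knockdown and 4.68 FPKM in the control library (-0.16). The genes of the IGF2 mRNA-binding proteins, IGF2BP1, IGF2BP2 and IGF2BP3, had differences of -0.05, 0.42 and 0.20.

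Genes listed for cleavage of the binding proteins, in which proteases and their inhibitors are mixed, were mostly higher. Of 12 proteases and inhibitors that passed, 7 were higher and none lower by 2-fold, with a median of 1.55. That was 58.3%, beside 4.96% of all genes higher by 2-fold. PAPPA, the protease that cuts IGFBP4, had 51.6 FPKM in the knockdown and 46.5 FPKM in the control library (0.15). The stanniocalcins inhibit PAPPA: STC2 had 19.5 FPKM in the knockdown and 4.94 FPKM in the control library (1.78). STC1 had 24.6 FPKM in the knockdown and 6.84 FPKM in the control library (1.71). HTRA1, a secreted serine protease that cuts IGFBP5, had 75.3 FPKM in the knockdown and 28.0 FPKM in the control library (1.39). The plasminogen activator gene PLAT had 13.97 FPKM in the knockdown and 2.16 FPKM in the control library (2.25). PLAU, the gene of the other plasminogen activator, had 147 FPKM in the knockdown and 34.03 FPKM in the control library (2.08). The plasminogen gene itself, PLG, was listed at 0 in both libraries. MMP2, a matrix metalloprotease gene, had 31.2 FPKM in the knockdown and 4.35 FPKM in the control library (2.59).

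Cell surface partners and downstream genes differed unevenly. Of 6 surface partners that passed, 3 were higher and none lower by 2-fold. They were genes of integrin subunits, receptors that IGFBP1 and IGFBP2 can bind: the coding sequences of these 2 binding proteins held 1 arginine-glycine-aspartate stretch each, and the other binding proteins had none. ITGB3 had 46.4 FPKM in the knockdown and 0.93 FPKM in the control library (4.62). ITGA5 had 109 FPKM in the knockdown and 13.6 FPKM in the control library (2.91). ITGAV had 243 FPKM in the knockdown and 77.6 FPKM in the control library (1.64). The integrin subunit gene ITGB1 had 391 FPKM in the knockdown and 762 FPKM in the control library (-0.96). LRP1, a receptor for IGFBP3, was at 0.84. TMEM219, also on this list, had 39.0 FPKM in the knockdown and 39.1 FPKM in the control library (-0.002). Of 19 adaptors and regulators at the receptor 1 was higher by 2-fold, and of 23 genes in the PI3-kinase, AKT and mTOR arm 1 was. These shares, 5.26% and 4.35%, were near the 4.96% of all genes. The first was GRB10, which restrains IGF1R and insulin receptor signalling, at 68.2 FPKM in the knockdown and 21.7 FPKM in the control library (1.61). The other was the lipid phosphatase gene INPP4B, at 27.1 FPKM in the knockdown and 12.1 FPKM in the control library (1.10). The median of the PI3-kinase arm was -0.10, and AKT1 and AKT2 had differences of -0.30 and -0.39.

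Of the FOXO factors and genes known as their targets 14 passed, of which 13 had a difference above 0 and 3 were higher by 2-fold, with a median of 0.41. Over all genes 46.6% had a difference above 0 and 4.96% were higher by 2-fold. FBXO32, a ubiquitin ligase subunit, had 19.99 FPKM in the knockdown and 3.86 FPKM in the control library (2.11). PIK3IP1, an inhibitor of PI3-kinase, had 3.65 FPKM in the knockdown and 0.56 FPKM in the control library (1.58). GADD45A was at 1.37. IRS2 and IGFBP1, which FOXO factors are also known to induce, stood at -0.66 and 0.43. Of 5 secreted proteins related to the binding proteins by their amino-terminal domain or grouped with them, 3 were higher by 2-fold, the matricellular genes CYR61 (1.65) and CTGF (1.30) and the protease gene HTRA3 (1.12).

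**Figure D4:**
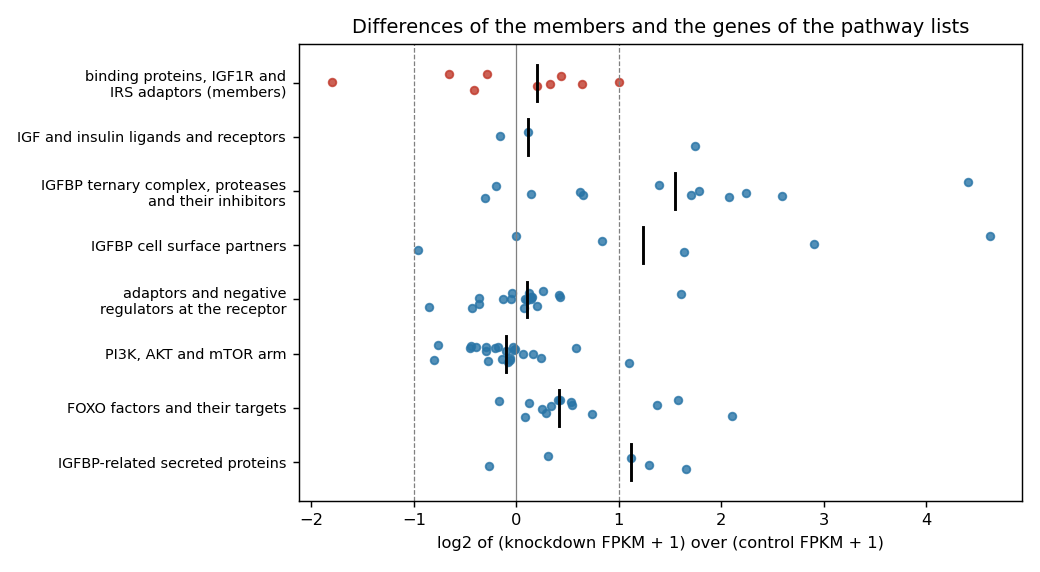
The log2 difference of each gene that passed 1 FPKM, by list, with the 9 measured members in red, the pathway lists in blue, a black bar at each median, dashed lines at 2-fold, and vertical scatter only to separate points. The protease, surface partner and related secreted protein lists have medians of 1.55, 1.24 and 1.12, while the members have 0.20 and the PI3-kinase arm -0.10.

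Some markers of other cell types that also make binding proteins were measured, and several were higher in the knockdown library. Of 10 fibroblast genes 3 passed, and their summed level over all 10 was 46.1 FPKM in the knockdown and 22.7 FPKM in the control library. THY1 had 25.98 FPKM in the knockdown and 5.73 FPKM in the control library (2.003), COL1A1 was at 1.54 and TWIST2 at -0.50. DCN was listed at 0 in both libraries, and COL1A2, COL3A1 and LUM were under 0.2 FPKM in both. Of 7 endothelial genes 1 passed, ESAM, at 18.5 FPKM in the knockdown and 3.04 FPKM in the control library (2.27). The list had a summed level of 18.9 FPKM in the knockdown and 3.04 FPKM in the control library, and VWF and KDR were listed at 0 in both. Of 9 blood and immune genes 3 passed, with a summed level of 31.7 FPKM in the knockdown and 9.27 FPKM in the control library. Most of it was CD68, at 25.8 FPKM in the knockdown and 6.90 FPKM in the control library (1.76). CD14 and CD79A were at 0.75 and 0.81. LYZ, CD3E, MS4A1 and HBB were listed at 0 in both libraries, and PTPRC was at 0.047 FPKM in the knockdown and 0 in the control library. Their part in the differences of IGFBP7 and the other members was not tested. In bulk RNA, a change in the share of cells that make a transcript and a change in the amount per cell cannot be told apart.

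**Figure D5:**
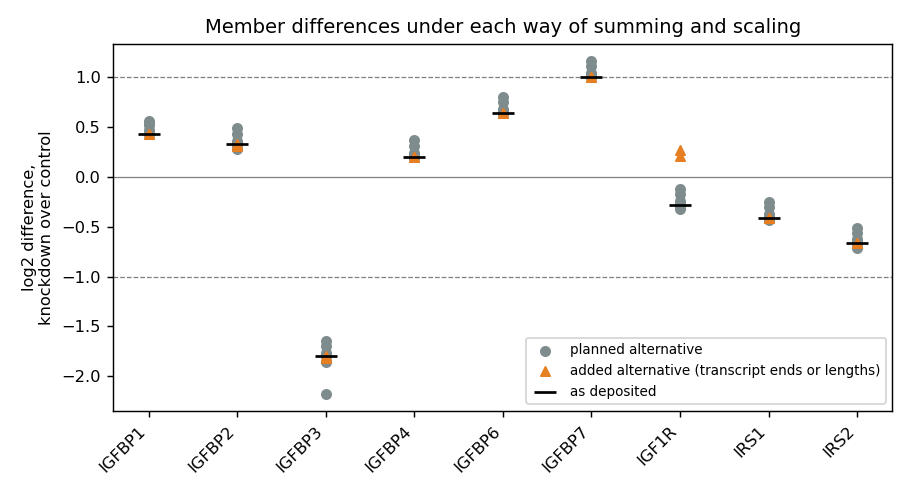
The log2 difference of 9 members under each way of summing and scaling, with a black bar for the values as deposited, grey circles for other scalings, filters and sums, and orange triangles for the 2 that weigh transcripts by length or leave out incomplete ones. IGF1R is the only member shown whose points lie on both sides of 0, at 0.21 and 0.27 under these 2.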

How the data were processed

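Trizol-extracted RNA went into Illumina TruSeq libraries, per the labels' protocols. The submitters' processing notes name Cufflinks, TopHat, CASAVA 1.8.2 and the hg38 build. The role of each tool, the annotation release, the strand setting and any filters are not given in the sources used here. FPKM per transcript is the unit the authors deposited. Of the H1299 table, 3 value columns matched no label and were not used. Transcripts were summed per symbol with pandas 2.3.3 and numpy 2.4.6. Genes at 1 FPKM or more in either library were kept, and log2 differences used a pseudocount of 1 FPKM. Transcript lengths, ends and coding sequences came from GENCODE release 29, which matched 99.5% of the transcripts. The counting was tested on simulated data. The members and lists were chosen with earlier results of these data known. All 10 members are named, with RBM4, up to 6 genes per list past 2-fold and a fixed set that includes IGF2 and PAPPA. HTRA1, PLG, ITGB1, LRP1, TMEM219, AKT1, AKT2 and the marker genes were added after their values were seen. Some genes are not reported here.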

Additional observations from a re-analysis of the deposited data

How the results depend on the processing

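Of 81 member differences recomputed under 9 alternatives, 79 kept their direction and their side of 2-fold. The other 2 were IGF1R, at 0.21 with FPKM times transcript length and at 0.27 with transcripts annotated at both ends, against -0.28 as deposited. Both alternatives were chosen after seeing the data, and by construction both lower the weight of the short transcripts. Part of the 79 could not change either. A filter does not enter the difference of a gene. Where all of a gene's level came from 1 transcript, as in IGFBP1, IGFBP4, IRS1 and IRS2, the way of summing made no difference. With the highest transcript per symbol IGF1R was at -0.33, a value that compares IGF1R-201 in the knockdown with IGF1R-204 in the control library. IGFBP3 ranged from -2.18 to -1.64 and IGFBP7 from 1.00 to 1.17. The count of members past 2-fold was 2 under every alternative. IGFBP7 only just passed, and rescaling, centring on the median of all genes and the smaller pseudocount could only raise it. The unchanged count is therefore no check of that narrow margin under these settings. The count of pathway genes ranged from 18 to 21, of which 1 was lower with a pseudocount of 0.1 FPKM and 1 with the highest transcript per symbol. The count over all genes was 1403 with a pseudocount of 0.1 FPKM, against 882. The median of all genes was 0.06 with the libraries rescaled to the same total and 0.11 with that rescaling and mitochondrial genes left out, against -0.04 as deposited. The planned results for H1299 were not run, since its columns could not be tied to samples. No paired analysis was possible because each group had 1 library. Without counts or replicates, neither depth nor error can be given for any single value.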
